A study of Homo sapiens with 8 samples.

Results

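Ribosome densities were compared between HEK293T cells deprived of methionine (Met-) and HEK293T cells deprived of arginine (Arg-), both without cycloheximide pretreatment. For each gene symbol the highest transcript was taken, and 8057 mRNAs with a mean density of at least 10 RPKM over the pair were compared, of 11407 listed in either library and 12256 in the whole series. RPKM is the number of footprint reads on a coding sequence per kilobase, scaled to the reads of that library on coding sequences. The ratio was log2((RPKM in Met- + 1)/(RPKM in Arg- + 1)), so a positive value is a higher density in Met- and the values of low mRNAs are understated. HEK293T is an established human embryonic kidney line immortalized with the SV40 large T antigen. Every culture was moved to medium rebuilt from DMEM without sulfur amino acids, histidine, leucine and arginine, with dialyzed serum. All of these amino acids were then restored in sufficient medium (Suff), all but methionine in Met-, all but arginine in Arg- and all but leucine in Leu-. Each deprivation lasted overnight, as the labels give it. The series held 8 libraries, 4 with cycloheximide and 4 without it, with 1 library per condition. No value below therefore has a replicate error, no mRNA was tested, and a call means only that the ratio passed 2-fold.

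Ribosome profiling sequences the mRNA fragments that ribosomes shield from nuclease. Methionine begins nearly every protein and is also the precursor of S-adenosylmethionine (SAM), the methyl donor for DNA, RNA, histones and small molecules and, once decarboxylated, the donor of the aminopropyl groups of polyamines. Arginine is a precursor of proline, creatine and nitric oxide, and is sensed upstream of the growth kinase mTORC1. Uncharged tRNA can activate the kinase GCN2, which slows initiation and favours translation of the transcription factor ATF4 in the integrated stress response (ISR), and genes of this response can also be induced by other routes.

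The Met- library held 1302523 reads on coding sequences and the Arg- library 1610707, counts that follow from RPKM being whole reads divided by length and library size. Ratios of single mRNAs are given with an exact 95% binomial interval of these reads, which covers counting error only and, being computed on reads without the added 1, can differ slightly in centre from the ratio. All 5 markers of HEK293T cells (KRT8, KRT18, VIM, NEFL and NEFM) were among the mRNAs compared, whereas none of 12 markers of blood, liver, fibroblasts, endothelium, astrocytes and islets reached the minimum. Of the latter COL1A1 alone was listed, at 4.19 RPKM in Met- and 1.84 RPKM in Arg-.

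The 2 libraries were close for most mRNAs. Across the 8057 mRNAs the Spearman rho of the densities was 0.87. The median log2 ratio was 0.29, which is a 1.22-fold higher relative density in Met-, and the SD over mRNAs was 0.81. In Met-, 1226 mRNAs (15.2%) were at least 2-fold higher and 305 mRNAs (3.79%) at least 2-fold lower. RPKM is a share of each library, so a library with fewer reads on one large group has higher values elsewhere. When ratios were centred on their median, 576 mRNAs were higher and 589 lower, so the share of calls that were higher was 80.1% as measured and 49.4% centred. Values of single mRNAs below are as measured. After centring, those with a measured log2 ratio from 1 to 1.29 are no longer at least 2-fold higher, which holds for ODC1, OAT, SLC7A5 and CEBPG among others. Likewise, some mRNAs counted below as within 2-fold become at least 2-fold lower, since the lower calls rise from 305 to 589. The interval of reads lay beyond 0 for 1146 of the 1151 higher calls and 258 of the 269 lower calls that had one. Because the calls were picked on these same reads, this largely follows from their choice. It covers counting error only, not variation between libraries. The shares of 15.2% and 3.79% and the median of 0.29 are the background against which each group below is to be read.

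**Figure D1:**
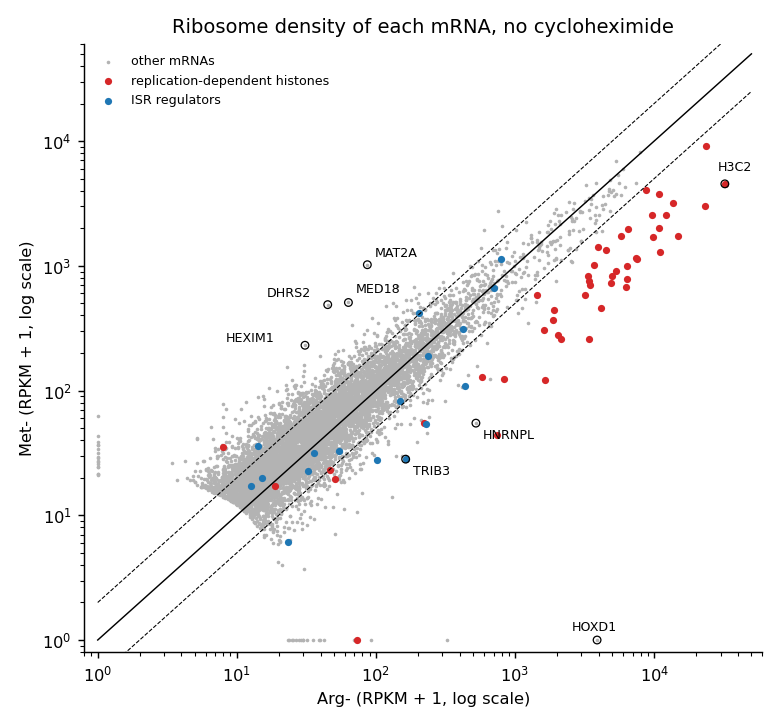
Ribosome density (RPKM + 1, both axes logarithmic) of the 8057 mRNAs in Arg- (horizontal) and Met- (vertical), 1 library each. The solid line is equality and the dashed lines are 2-fold, points at 1 on an axis were not listed in that library, and most histone mRNAs (red) lie below the lower dashed line. ISR regulators are in blue, 8 mRNAs are named and circled, and MAT2A lies above the upper dashed line.

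MAT2A, the enzyme that makes SAM from methionine in most tissues, had the highest ratio of the 5433 mRNAs with at least 100 reads in the pair. Its density was 1019 RPKM in Met-, 85.7 RPKM in Arg-, 249 RPKM in Suff and 125 RPKM in Leu-. Met- was thus the highest and Arg- the lowest of these 4 libraries, and the log2 ratio was 3.56 (95% interval 3.34 to 3.81, from 1577 and 164 reads). With cycloheximide the same pair had 728 and 84.6 RPKM. METTL16, the RNA methyltransferase that binds hairpins of the MAT2A 3′ untranslated region (UTR) and promotes splicing of the MAT2A transcript when SAM is low, also stood higher in Met-, at 70.9 RPKM in Met- and 19.8 RPKM in Arg-, beside 33.6 RPKM in Suff and 19.4 RPKM in Leu- (log2 ratio 1.79, 95% interval 1.38 to 2.31). The METTL16-type motifs are shown because MAT2A carries more of them than any other compared mRNA. A search of the mRNA strand for TACAGANAA, the 9-base motif of such hairpins written with T for U, found 6 matches in the 1509 bases of the MAT2A 3′ UTR (GRCh38, chromosome 2, plus strand), from GENCODE release 44. Positions are counted from the first base of the 3′ UTR, and the motif is in capitals.
MAT2A position 40 (chr2:85543804-85543828): gcgtaggcTACAGAGAAgccttcaa
MAT2A position 827 (chr2:85544591-85544615): tgatgtcaTACAGAGAAgtcacagg
MAT2A position 1012 (chr2:85544776-85544800): ggtgtagcTACAGAGAAaccagctt
MAT2A position 1127 (chr2:85544891-85544915): ggcgtaagTACAGAGAAgccatcac
MAT2A position 1242 (chr2:85545006-85545030): aggtgtccTACAGAAAAaccttggg
MAT2A position 1350 (chr2:85545114-85545138): tggtgtggTACAGAGAAgccagctt
Of 7743 compared mRNAs with an annotated 3′ UTR, 472 (6.10%) held the motif at least once, 3 held it at least 3 times, and MAT2A had the highest number. Its 3′ UTR had 3.98 matches per kilobase, against 0.0388 over all of these 3′ UTRs. The 472 mRNAs had a median log2 ratio of 0.42, those without the motif 0.29, and 15.9% of the former were at least 2-fold higher, close to the 15.2% of all mRNAs. The other mRNAs with at least 3 matches were GPATCH2L, with a log2 ratio of 0.90, and RPAP2, with 0.27. A match is a description of the letters and does not show a site in use.

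Most other mRNAs of the methionine cycle and its salvage pathway lay within 2-fold. Of 20 listed genes 16 were compared, with MAT2A and METTL16 at least 2-fold higher, 1 at least 2-fold lower and a median of 0.16, below that of all mRNAs. MAT2B, the regulatory partner of MAT2A, had 96.3 RPKM in Met- and 85.3 RPKM in Arg-. AHCY, which removes the S-adenosylhomocysteine left after methyl transfer, had 389 RPKM in Met- and 353 RPKM in Arg- (log2 ratio 0.14, 95% interval -0.01 to 0.29). MTR, which remethylates homocysteine, had 36 RPKM in Met- and 34.3 RPKM in Arg-, and its reductase MTRR had 38.4 RPKM in Met- and 21.7 RPKM in Arg-, for log2 ratios of 0.07 and 0.80. The mRNA that was lower was CTH, the enzyme that releases cysteine from cystathionine, at 78.2 RPKM in Met- and 231 RPKM in Arg- (log2 ratio -1.55, 95% interval -1.86 to -1.28). CTH stood at 17.3 RPKM in Suff and 141 RPKM in Leu-, so all 3 deprived libraries were above Suff and Met- was the lowest of the 3. CBS, which makes cystathionine, had 12.1 RPKM in Met- and 9.75 RPKM in Arg-.

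Decarboxylated SAM feeds polyamine synthesis. Of 9 compared mRNAs of polyamine synthesis 2 were at least 2-fold higher and none at least 2-fold lower, with a median of 0.22. AMD1 makes decarboxylated SAM and had 379.7 RPKM in Met-, 93.3 RPKM in Arg-, 109.7 RPKM in Suff and 68.5 RPKM in Leu- (log2 ratio 2.01, 95% interval 1.76 to 2.30). ODC1, the other committed enzyme, which makes putrescine from ornithine, had 225 RPKM in Met-, 97.7 RPKM in Arg-, 221 RPKM in Suff and 147 RPKM in Leu- (log2 ratio 1.20, 95% interval 0.97 to 1.45). Met- was above all 3 other libraries for both, by a narrow margin for ODC1 against Suff. In the pair with cycloheximide ODC1 had the opposite order, with 145 RPKM in Arg- and less than 86 RPKM in Met-, where it was not listed. AZIN1, which protects ODC1 from degradation, had a log2 ratio of 0.87. The synthases that add the aminopropyl groups were not higher by 2-fold, since SRM had 256 RPKM in Met- and 239 RPKM in Arg- and SMS 53.7 RPKM in Met- and 84 RPKM in Arg- (log2 ratio -0.64, 95% interval -1.06 to -0.24).

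Of the enzymes of arginine and proline, 10 of 20 were compared, 2 at least 2-fold higher, 1 at least 2-fold lower, with a median of 0.35. PYCR3, a reductase that completes proline, had 95.4 RPKM in Met-, 26.7 RPKM in Arg-, 64.4 RPKM in Suff and 68.3 RPKM in Leu- (log2 ratio 1.80, 95% interval 1.29 to 2.42). Arg- was the lowest of the 4 libraries for this mRNA. OAT, which turns ornithine into a proline precursor, had 337 RPKM in Met-, 138 RPKM in Arg-, 126 RPKM in Suff and 185 RPKM in Leu- (log2 ratio 1.28, 95% interval 1.08 to 1.49), and here Met- was the highest of the 4. The order of the pair was opposite for ASS1, the enzyme that commits citrulline to arginine synthesis, with 39.7 RPKM in Met-, 98.7 RPKM in Arg-, 35.5 RPKM in Suff and 97.6 RPKM in Leu- (log2 ratio -1.29, 95% interval -1.75 to -0.90). Leu- lay next to Arg- for ASS1 and Met- next to Suff. ASL, the next enzyme, had 28.1 RPKM in Met- and 33.8 RPKM in Arg-, with an interval of -0.81 to 0.26 that includes 0. GLUL, which makes glutamine, had 608 RPKM in Met- and 235 RPKM in Arg- (log2 ratio 1.37, 95% interval 1.20 to 1.54), while ASNS, which makes asparagine and is a classic ATF4 target, had 392 RPKM in Met- and 689 RPKM in Arg- (log2 ratio -0.81, 95% interval -0.93 to -0.70) and 68 RPKM in Suff.

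**Figure D2:**
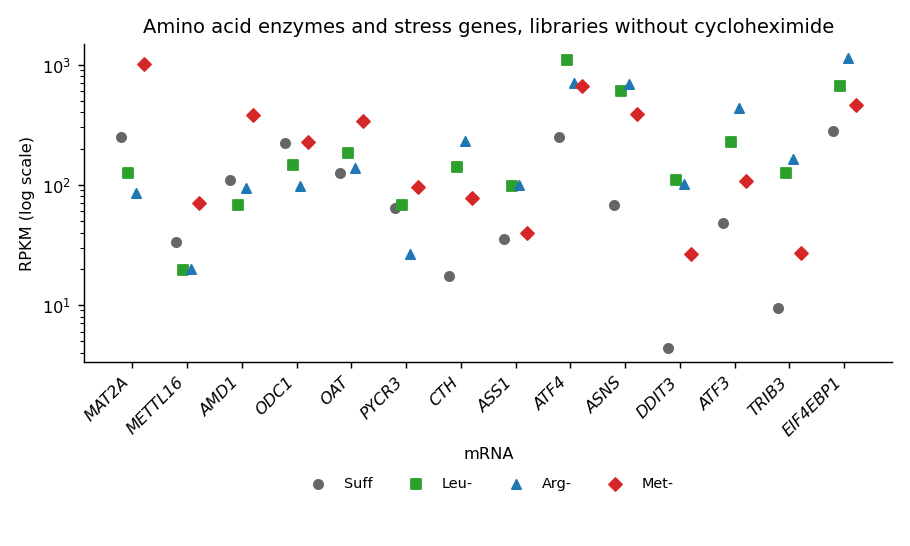
Density (RPKM, logarithmic axis) of 14 mRNAs in the 4 libraries without cycloheximide, 1 library per condition and no error bars. MAT2A, METTL16, AMD1, ODC1, OAT and PYCR3 are highest in Met-, whereas CTH, ASS1, ASNS, DDIT3, ATF3, TRIB3 and EIF4EBP1 are lower in Met- than in Arg-, and ATF4 lies close in both.

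Replication-dependent histones, which package newly made DNA and whose mRNAs end in a stem-loop in place of a poly(A) tail, had the median farthest from 0 of the 33 gene lists examined. Of 56 histone mRNAs 47 were compared. In Met-, 45 of them were at least 2-fold lower, 1 lay in between and 1 was higher, against 3.79% at least 2-fold lower among all mRNAs. The median log2 ratio was -2.40, which is 5.29-fold lower in Met- than in Arg-. The lowest, median and highest density were 0, 783 and 9063 RPKM in Met-, 6.96, 4155 and 32195 RPKM in Arg-, 7.15, 1853 and 8476 RPKM in Suff, and 6.42, 2361 and 15102 RPKM in Leu-. Arg- and Met- lay on opposite sides of Suff, since 46 of 47 histone mRNAs were above Suff in Arg- and 41 of 47 were below Suff in Met-. The median against Suff was 1.23 on the log2 scale for Arg- and -1.14 for Met-, and both ratios share the Suff library. All 47 were also above Leu- in Arg-, and 43 were below it in Met-. Histone mRNAs took 11.4% of the reads on coding sequences in Arg-, 2.36% in Met-, 4.70% in Suff and 6.42% in Leu-. Unique alignment leaves out footprints that near-identical histone copies share, so the level of each copy is uncertain.

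**Figure D3:**
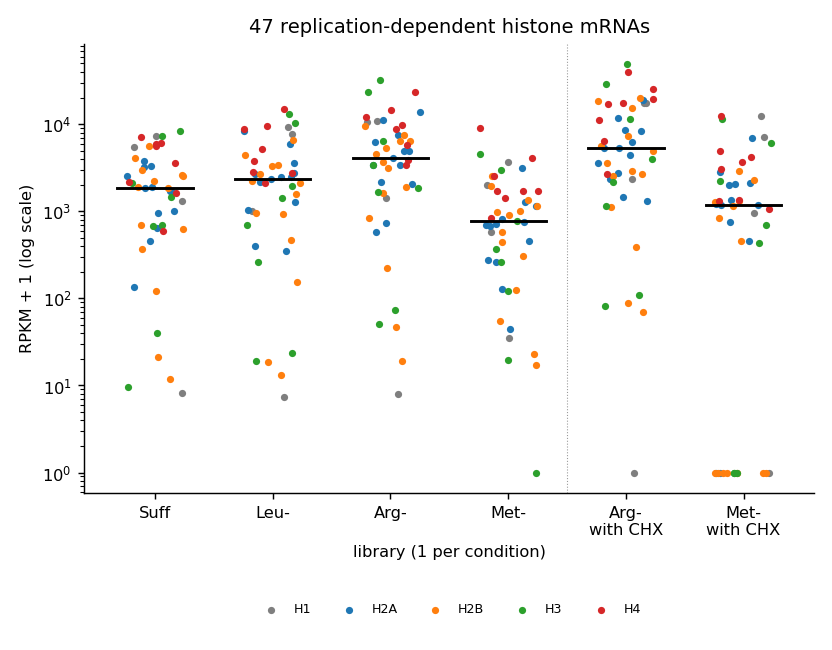
Density (RPKM + 1, logarithmic axis) of the 47 histone mRNAs in the 4 libraries without cycloheximide and in Arg- and Met- with cycloheximide (CHX), coloured by family, with the median of each library as a bar. Most points are higher in Arg- (median 4155 RPKM) and lower in Met- (783 RPKM) than in Suff (1853 RPKM), and points at 1 were not listed.

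The median of each of the 5 histone families was below 0. The 8 H3 mRNAs had a median log2 ratio of -2.99, the 13 H2A mRNAs -2.76, the 14 H2B mRNAs -2.06, the 8 H4 mRNAs -1.88 and the 4 mRNAs of linker histone H1 -1.41. All H3, H2A and H4 mRNAs were at least 2-fold lower in Met-, as were 13 of the H2B and 3 of the H1 mRNAs. H3C2, the histone mRNA of highest density, had 4537 RPKM in Met-, 32195 RPKM in Arg-, 8476 RPKM in Suff and 13197 RPKM in Leu- (log2 ratio -2.83, 95% interval -2.89 to -2.77). H3C10 had 3000 RPKM in Met- and 23260 RPKM in Arg-, H2AC11 had 1278 RPKM in Met- and 11088 RPKM in Arg- and H4C5 had 1718 RPKM in Met- and 14767 RPKM in Arg-. H2BC5 had 1141 RPKM in Met- and 7559 RPKM in Arg-, for log2 ratios of -2.95, -3.12, -3.10 and -2.73 in this order. The linker histones H1-2 and H1-4 had log2 ratios of -1.54 and -2.43, and the median share of arginine in their family was 1.82% of residues, against 13.2% in H3 and 13.6% in H4. H1-6, a linker histone known from the testis, was the exception in direction at 34.4 RPKM in Met- and 6.96 RPKM in Arg-, from 28 and 7 reads, and H2BC14 lay between at 16.1 RPKM in Met- and 17.9 RPKM in Arg-. H3C6 was not listed in Met-, a file that starts at 5 reads, and had 72.5 RPKM in Arg-, so it has no fold.

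Besides the values, most of these mRNAs shared a sequence pattern in the 3′ UTR. A fixed 16-base pattern of the histone stem-loop, with alternative bases at some positions, was searched in the whole 3′ UTR. It matched in 44 of the 47, and in 0.633% of all compared mRNAs with a 3′ UTR. The match is given below for the mRNA of highest density in Arg- within each family, among those with a match. Its 16 bases are in capitals (GENCODE release 44, GRCh38, mRNA strand). Likeness between families follows from the search pattern and is no separate result.
H1-2 (chr6:26055740-26055764, minus strand): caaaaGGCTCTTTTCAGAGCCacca
H2AC6 (chr6:26124664-26124689, plus strand): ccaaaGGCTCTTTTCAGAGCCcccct
H2BC5 (chr6:26158582-26158607, plus strand): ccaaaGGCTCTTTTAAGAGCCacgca
H3C2 (chr6:26031592-26031617, minus strand): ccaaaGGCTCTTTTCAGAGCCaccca
H4C3 (chr6:26104312-26104337, plus strand): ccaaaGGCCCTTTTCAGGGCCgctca
The 3 histone mRNAs whose annotated 3′ UTR held no match, H2BC11, H2BC15 and H2BC18, had log2 ratios of -1.90, -2.75 and -2.55, within the range of the others. Of 5 compared mRNAs outside this list with a match to the pattern, 1 was at least 2-fold lower, and their median was -0.11. That one was H2AX, a histone of DNA damage signalling, with 510.1 RPKM in Met-, 1420 RPKM in Arg-, 689 RPKM in Suff and 727 RPKM in Leu- (log2 ratio -1.48, 95% interval -1.67 to -1.29). The others were the histone variant H3-4 at a log2 ratio of -0.57, BTBD10 at -0.11, the chromatin remodelling subunit RSF1 at 0.53 and NHLRC3 at 0.71. A match anywhere in a 3′ UTR describes the letters and does not show a stem-loop at the end of the mRNA. The median of these mRNAs is therefore no statement about mRNAs that end in the stem-loop.

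Histone variants made outside S phase were mixed. Of 12 such mRNAs, a list drawn up after the values were seen, 5 were at least 2-fold lower in Met-, 1 was at least 2-fold higher and the median was -0.72. H3-3B, which encodes the replacement histone H3.3, had 344 RPKM in Met- and 1245 RPKM in Arg- (log2 ratio -1.85, 95% interval -2.10 to -1.62), whereas H3-3A, which encodes the same protein, had 4031 RPKM in Met- and 5079 RPKM in Arg- (log2 ratio -0.33, 95% interval -0.41 to -0.25). H1-10, a linker variant, had 1924 RPKM in Met- and 598 RPKM in Arg- (log2 ratio 1.69, 95% interval 1.55 to 1.82). Neither group of genes that serves histone supply showed a shift of such size. Among 10 of 14 factors for histone transcription and 3′ end formation, also listed after the values were seen, none passed 2-fold and the median was 0.26, with SLBP, the stem-loop binding protein, at 169 RPKM in Met- and 170.5 RPKM in Arg-. All 34 genes of DNA replication were compared, 2 were at least 2-fold higher, 1 at least 2-fold lower, and the median was 0.08. FEN1, which trims Okazaki fragments, had 673 RPKM in Met- and 185 RPKM in Arg- (log2 ratio 1.86, 95% interval 1.68 to 2.04), GINS3, part of the replicative helicase, had 154 RPKM in Met- and 58.2 RPKM in Arg-, and PCNA, the sliding clamp, had 541 RPKM in Met- and 1173 RPKM in Arg- (log2 ratio -1.11, 95% interval -1.26 to -0.97). A lower share of histone mRNA and a lower number of ribosomes on each cannot be told apart in these values, since footprints alone were analysed here, nor can a lower share of cells in S phase and fewer histone footprints per cell.

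All 17 compared ISR mRNAs of a list of 23 were above Suff in both conditions, with a median log2 ratio over Suff of 1.79 in Met- and 2.13 in Arg-, and these ratios share the Suff library. Between them, 5 of the 17 were at least 2-fold lower and 2 at least 2-fold higher in Met-, with a median of -0.45. ATF4, the central transcription factor, was not among these, with 662 RPKM in Met-, 700.2 RPKM in Arg-, 251 RPKM in Suff and 1098 RPKM in Leu- (log2 ratio -0.08, 95% interval -0.21 to 0.04). The interval for ATF4 includes 0, and Leu- was the highest. Several genes downstream of ATF4 were lower in Met-. TRIB3, a pseudokinase that restrains ATF4, had 27.2 RPKM in Met-, 162 RPKM in Arg-, 9.35 RPKM in Suff and 125 RPKM in Leu- (log2 ratio -2.54, 95% interval -3.09 to -2.11). ATF3, a repressor of transcription, had 107 RPKM in Met-, 434 RPKM in Arg-, 47.8 RPKM in Suff and 228 RPKM in Leu- (log2 ratio -2.01, 95% interval -2.40 to -1.66). DDIT3, the factor CHOP, had 26.5 RPKM in Met- and 101 RPKM in Arg-, beside 4.40 RPKM in Suff and 109.6 RPKM in Leu- (log2 ratio -1.89, 95% interval -2.70 to -1.22). NUPR1 had a log2 ratio of -2.09 and INHBE of -1.94, the latter from 7 and 38 reads. For TRIB3, ATF3, DDIT3, NUPR1 and CTH alike, Leu- was above Met-. Other targets went the other way or stayed near 0, since CEBPG, a partner of ATF4, had 420.3 RPKM in Met- and 201 RPKM in Arg- (log2 ratio 1.06, 95% interval 0.76 to 1.37), KLHL24 had a log2 ratio of 1.35, DDIT4, an inhibitor of mTORC1, had 1124 RPKM in Met- and 798 RPKM in Arg- (log2 ratio 0.49, 95% interval 0.36 to 0.63) and SESN2, a leucine sensor, had 187 RPKM in Met- and 237 RPKM in Arg- (log2 ratio -0.34, 95% interval -0.54 to -0.14). With cycloheximide CEBPG had the opposite order, at 288 RPKM in Arg- and less than 264 RPKM in Met-, where it was not listed.

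Amino acid transporters and aminoacyl-tRNA synthetases, many of them ATF4 targets, differed less between the deprivations. Of 14 compared transporters 2 were at least 2-fold higher in Met- and none at least 2-fold lower, with a median of -0.05. SLC7A5, the exchanger for large neutral amino acids, had 453 RPKM in Met- and 223 RPKM in Arg- (log2 ratio 1.02, 95% interval 0.87 to 1.18), but its partner SLC3A2 had 406 RPKM in Met- and 397 RPKM in Arg- (log2 ratio 0.03, 95% interval -0.09 to 0.15). SLC7A1, the main arginine transporter of most cells, had 199 RPKM in Met-, 170.2 RPKM in Arg-, 40.3 RPKM in Suff and 145 RPKM in Leu-, and SLC7A11, which imports cystine, had 81.6 RPKM in Met- and 102 RPKM in Arg-, for log2 ratios of 0.22 and -0.32. SLC38A2, an importer of small neutral amino acids, had 126 RPKM in Met- and 193 RPKM in Arg- (log2 ratio -0.61, 95% interval -0.84 to -0.39). All 21 cytosolic synthetases were compared, with 1 at least 2-fold higher, 2 at least 2-fold lower and a median of -0.23. The synthetase of methionine, MARS1, had 149 RPKM in Met-, 189 RPKM in Arg-, 57.5 RPKM in Suff and 174 RPKM in Leu- (log2 ratio -0.34, 95% interval -0.50 to -0.18). The synthetase of arginine, RARS1, had 91.8 RPKM in Met-, 98.9 RPKM in Arg-, 80.5 RPKM in Suff and 106 RPKM in Leu- (log2 ratio -0.11, 95% interval -0.36 to 0.14). Neither passed 2-fold. HARS1 had 142 RPKM in Met- and 51.5 RPKM in Arg-, VARS1 33 RPKM in Met- and 75.6 RPKM in Arg- and QARS1 40.9 RPKM in Met- and 84.3 RPKM in Arg-, for log2 ratios of 1.44, -1.17 and -1.03. Of 17 enzymes of serine and one-carbon metabolism 3 were at least 2-fold lower, ALDH1L2 at -1.62, MTHFD1 at -1.06 and PSPH at -1.04, with a median of -0.11.

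**Figure D4:**
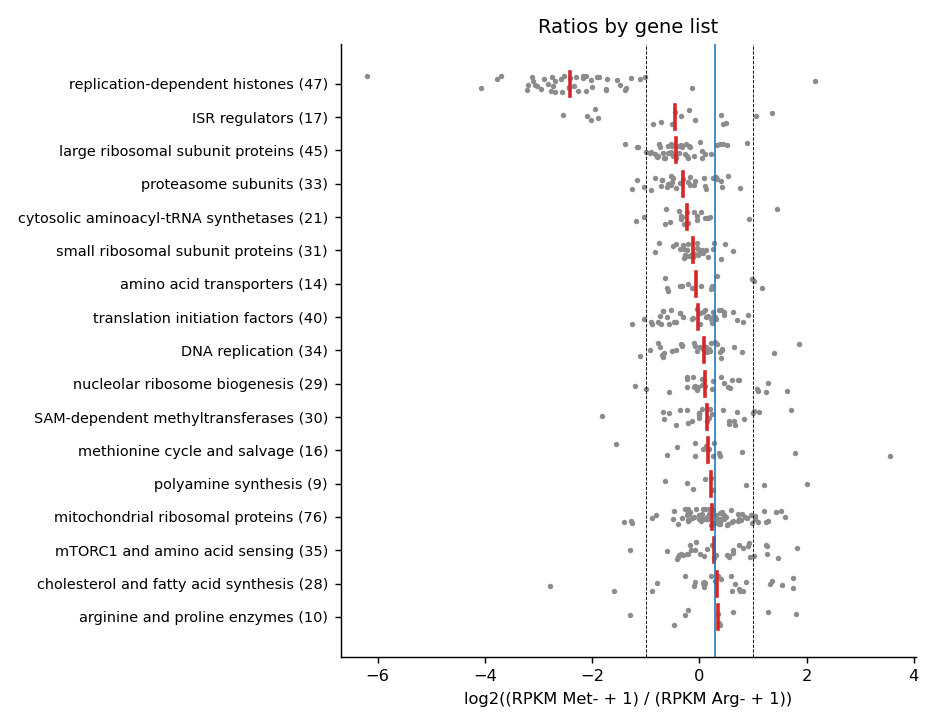
Log2 ratio of Met- over Arg- (horizontal) of each compared mRNA (grey points) in 17 gene lists, with the number of mRNAs in parentheses and the list's median in red, 1 library per condition. The blue line is the median of all 8057 mRNAs (0.29), the dashed lines are 2-fold, and only the median of the histones lies beyond them.

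For mTORC1 and its upstream sensors, 35 of 42 genes were compared, with 6 at least 2-fold higher and 1 at least 2-fold lower in Met- (17.1% and 2.86%), near the shares of all mRNAs, and a median of 0.28. WDR24, part of the GATOR2 complex that relays amino acid signals, had 23.9 RPKM in Met- and 6.07 RPKM in Arg- (log2 ratio 1.82, 95% interval 1.34 to 2.66). RRAGA, a Rag GTPase that recruits mTORC1 to the lysosome, had 207 RPKM in Met- and 73.8 RPKM in Arg- (log2 ratio 1.48, 95% interval 1.16 to 1.82), and RHEB, the GTPase that activates mTORC1 there, had 302 RPKM in Met- and 125 RPKM in Arg- (log2 ratio 1.26, 95% interval 0.93 to 1.61). RPTOR, SESN3 and CASTOR2, a relative of the arginine sensor CASTOR1, were the others, at log2 ratios of 1.02, 1.25 and 1.27. CASTOR1 itself was not among the mRNAs compared. SLC38A9, the lysosomal arginine sensor, had 25 RPKM in Met- and 21 RPKM in Arg-, and BMT2, the SAM sensor SAMTOR, had 13.2 RPKM in Met- and 8.67 RPKM in Arg- from 21 and 17 reads, and both intervals include 0. The mRNA that was lower was EIF4EBP1, which encodes the eIF4E-binding protein 4EBP1, at 458 RPKM in Met-, 1127 RPKM in Arg-, 280.1 RPKM in Suff and 664 RPKM in Leu- (log2 ratio -1.30, 95% interval -1.53 to -1.07). Its relative EIF4EBP2 had 57.1 RPKM in Met- and 56.4 RPKM in Arg-, and the cap-binding factor EIF4E had 215 RPKM in Met- and 176 RPKM in Arg-.

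The translation machinery lay below the median of all mRNAs, with few members past 2-fold. Of 31 mRNAs of the small ribosomal subunit none passed 2-fold in either direction, with a median of -0.11, and of 45 of the large subunit 3 were at least 2-fold lower, with a median of -0.44. RPL28 had 760.3 RPKM in Met- and 1979 RPKM in Arg- (log2 ratio -1.38, 95% interval -1.53 to -1.24) and RPL24 1892 RPKM in Met- and 4203 RPKM in Arg- (log2 ratio -1.15, 95% interval -1.25 to -1.05), whereas RPSA had 1041 RPKM in Met- and 675 RPKM in Arg- (log2 ratio 0.62, 95% interval 0.50 to 0.75). Some of these values are uncertain because ribosomal protein genes have many near-identical pseudogenes. Of 40 initiation factors 2 were at least 2-fold lower and none higher, with a median of -0.02. These were EIF1, which guards the choice of start codon, at 1072 RPKM in Met-, 2548 RPKM in Arg-, 1472 RPKM in Suff and 1608 RPKM in Leu- (log2 ratio -1.25, 95% interval -1.40 to -1.10), and EIF6, which keeps ribosomal subunits apart, at 253 RPKM in Met- and 517 RPKM in Arg- (log2 ratio -1.03, 95% interval -1.25 to -0.82). Among 33 proteasome subunits 3 were at least 2-fold lower and none higher, with a median of -0.31, and among 8 subunits of the CCT chaperonin, which folds actin and tubulin, 1 was at least 2-fold lower, with a median of -0.30. The 76 mitochondrial ribosomal proteins had a median of 0.24, with 9 at least 2-fold higher and 3 at least 2-fold lower. MRPL46 was the highest of them, at 242 RPKM in Met- and 79.8 RPKM in Arg- (log2 ratio 1.59, 95% interval 1.27 to 1.94).

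Enzymes that spend SAM were examined as a list of 37 methyltransferases, of which 30 were compared, 4 were at least 2-fold higher and 1 at least 2-fold lower, with a median of 0.14. SUV39H1, which methylates lysine 9 of histone H3, had 91.1 RPKM in Met- and 27.3 RPKM in Arg- (log2 ratio 1.70, 95% interval 1.29 to 2.21), NSD1 and EHMT1 had log2 ratios of 1.10 and 1.01, and PRMT6 had 94.6 RPKM in Met- and 46.8 RPKM in Arg-. PRMT1, the main enzyme for asymmetric dimethylation of arginine, was the one that was lower, at 111 RPKM in Met-, 390.0 RPKM in Arg-, 544 RPKM in Suff and 356 RPKM in Leu- (log2 ratio -1.81, 95% interval -2.07 to -1.57). Genes that write, read or erase N6-methyladenosine in mRNA, the mark that METTL16 also makes, were gathered into a list after METTL16 and RBM15 had been seen to be high, so their count supports nothing by itself. All 16 were compared, 8 were at least 2-fold higher, none was at least 2-fold lower and the median was 1.07. RBM15, which guides the writer complex to mRNA, had 158 RPKM in Met-, 29.4 RPKM in Arg-, 22 RPKM in Suff and 33.2 RPKM in Leu- (log2 ratio 2.38, 95% interval 2.16 to 2.70), and WTAP, the adaptor of that complex, had 478 RPKM in Met-, 117 RPKM in Arg-, 114 RPKM in Suff and 134 RPKM in Leu- (log2 ratio 2.02, 95% interval 1.81 to 2.25). Met- was the highest library for both. The readers YTHDF2 and YTHDF3 had log2 ratios of 1.78 and 1.39. In the pair with cycloheximide YTHDF2 had the opposite order, and it was not listed in Met- there. The eraser ALKBH5 had 118 RPKM in Met- and 51.3 RPKM in Arg- (log2 ratio 1.18, 95% interval 0.84 to 1.57). The catalytic pair differed from these, with METTL3 at 33.5 RPKM in Met- and 33.8 RPKM in Arg- (log2 ratio -0.02, 95% interval -0.47 to 0.43) and METTL14 at a log2 ratio of 0.45.

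Other groups held single mRNAs with large ratios in either direction. Of 28 compared genes of cholesterol and fatty acid synthesis 5 were at least 2-fold higher and 2 at least 2-fold lower, with a median of 0.32. DHCR7, the last enzyme of cholesterol synthesis, had 178 RPKM in Met- and 52.2 RPKM in Arg- (log2 ratio 1.76, 95% interval 1.47 to 2.09), while MVD, an enzyme of the mevalonate steps before it, had 9.57 RPKM in Met- and 71.7 RPKM in Arg- (log2 ratio -2.78, 95% interval -3.78 to -2.13). Of 29 factors of ribosome assembly in the nucleolus 5 were at least 2-fold higher and 1 at least 2-fold lower, with a median of 0.11, namely BYSL at 1.63, POLR1B at 1.29, RRS1 at 1.24, UTP15 at 1.09 and POLR1A at 1.07, against NPM1, a nucleolar chaperone, at 1099 RPKM in Met- and 2512 RPKM in Arg- (log2 ratio -1.19, 95% interval -1.29 to -1.10). Among 10 immediate early and growth factors of transcription ID1 was highest at 348 RPKM in Met- and 102 RPKM in Arg- and IER2 next at 153 RPKM in Met- and 48 RPKM in Arg-, for log2 ratios of 1.76 and 1.65. JUND was lower, at 38.2 RPKM in Met- and 80.9 RPKM in Arg- (log2 ratio -1.06, 95% interval -1.57 to -0.61), but higher in Met- in the pair with cycloheximide, at 252 and 74.8 RPKM. Of 7 mitochondrially encoded mRNAs, listed after the values were seen, 3 were at least 2-fold lower in Met- and none higher, with MT-ND5 at 80.9 RPKM in Met- and 310.4 RPKM in Arg- (log2 ratio -1.93, 95% interval -2.17 to -1.71) and MT-CO1 at 1378 RPKM in Met- and 856 RPKM in Arg-. Of 8 compared genes of the SMN complex, which assembles splicing particles and was also listed after the values were seen, 4 were at least 2-fold higher, with GEMIN4 at 109 RPKM in Met- and 21.5 RPKM in Arg- (log2 ratio 2.29, 95% interval 2.04 to 2.65) and GEMIN6 at 332 RPKM in Met- and 66.5 RPKM in Arg- (log2 ratio 2.30, 95% interval 1.88 to 2.78).

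The remaining lists lay near or below the median of all mRNAs. None of 18 antioxidant genes passed 2-fold (median 0.06). Of 19 genes of endoplasmic reticulum folding 1 was at least 2-fold lower, HERPUD1, which serves degradation of misfolded proteins, at 67.2 RPKM in Met- and 141 RPKM in Arg-, and the median was 0.01. Of 15 cytosolic heat shock genes HSF1, their transcription factor, was higher (38.1 RPKM in Met- and 17.2 RPKM in Arg-) and the chaperone HSPA4 lower (58.7 RPKM in Met- and 124 RPKM in Arg-), with a median of -0.07. Of 30 genes of the cell cycle the inhibitor CDKN2C was higher (161 RPKM in Met- and 47.8 RPKM in Arg-) and the cyclin CCND2 lower (121 RPKM in Met- and 287 RPKM in Arg-), with a median of -0.09. Splicing factors of the SR group held 1 lower mRNA of 28, SRSF5 (94.7 RPKM in Met- and 215 RPKM in Arg-), with a median of -0.07. For 33 genes of autophagy and the lysosome the counts were 3 higher, led by WIPI2 (106 RPKM in Met- and 37.8 RPKM in Arg-), and 2 lower, with a median of 0.05. The BCL2 family of apoptosis held BCL2L1 (42.7 RPKM in Met- and 18.6 RPKM in Arg-) on the higher side of 12 compared mRNAs, and on the lower side BID (22.2 RPKM in Met- and 65.8 RPKM in Arg-) and HRK, which was not listed in Met- or Suff and had 38.2 RPKM in Arg- and 31.5 RPKM in Leu-. Of 67 nuclear subunits of oxidative phosphorylation 4 were at least 2-fold higher and 1 lower (median 0.04), and NDUFA13 among them was not listed in Arg- but had 61 RPKM in Met-. Of 16 translation factors with a TOP motif or grouped with them none was at least 2-fold higher and 1, the marker VIM, lower (242 RPKM in Met- and 626 RPKM in Arg-), with a median of -0.15. Of a last list of 15 genes of initiation, sensing and assay controls 13 were compared, with HARS1 higher, EIF4EBP1 lower and a median of -0.01.

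Behind MAT2A, the highest ratios among mRNAs with at least 100 reads in the pair were those of DHRS2, ADAT3, MED18, NAB2, HEXIM1, PDP1, ZCCHC12, GMEB1, LRRC8C, CNOT7 and TOR1B, from 3.44 down to 2.45. DHRS2, a mitochondrial reductase, had 487 RPKM in Met-, 44 RPKM in Arg-, 6.70 RPKM in Suff and 36.3 RPKM in Leu- (log2 ratio 3.44, 95% interval 3.09 to 3.86). It was thus above Suff in all 3 deprived libraries. MED18, a subunit of the Mediator complex, had 507 RPKM in Met-, 62.4 RPKM in Arg-, 55.9 RPKM in Suff and 59.7 RPKM in Leu- (log2 ratio 3.00, 95% interval 2.64 to 3.43), and the other 3 libraries lay within 55.9 to 62.4 RPKM. HEXIM1, the inhibitor of the elongation kinase P-TEFb, had 229.6 RPKM in Met-, 29.9 RPKM in Arg-, 42.2 RPKM in Suff and 42.7 RPKM in Leu- (log2 ratio 2.90, 95% interval 2.52 to 3.39). NAB2, a corepressor of EGR factors, had 49.6 RPKM in Met-, 5.51 RPKM in Arg-, 21 RPKM in Suff and 9.31 RPKM in Leu-, from 102 and 14 reads in the pair. At the other end, 8 of the 12 lowest were histone mRNAs. Of the other 4, HOXD1 and PIK3R5 were not listed in Met- and so have no fold. HOXD1, a homeobox factor, had 6175 reads and 3884 RPKM in Arg-, 720 RPKM in Leu- and 106 RPKM in Suff, but was in neither library of the pair with cycloheximide. PIK3R5 had 31 RPKM in Arg- and was listed in neither Suff nor Leu-. HNRNPL, a splicing factor, had 53.8 RPKM in Met-, 522 RPKM in Arg-, 559 RPKM in Suff and 701 RPKM in Leu- (log2 ratio -3.25, 95% interval -3.55 to -3.01), and its paralog HNRNPLL had 6.13 RPKM in Met- and 49.9 RPKM in Arg- (log2 ratio -2.84, 95% interval -3.97 to -2.20), beside 38.7 RPKM in Suff and 47.2 RPKM in Leu-. For both, Met- was the lowest of the 4. Of 19 compared HNRNP mRNAs, listed for this reason, these were the only ones at least 2-fold lower, and the median was 0.07. NFIC, a transcription factor, had 13.1 RPKM in Met-, 129.7 RPKM in Arg-, 18.6 RPKM in Suff and 59.9 RPKM in Leu- (log2 ratio -3.22, 95% interval -3.95 to -2.73).

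The share of mRNAs at least 2-fold higher in Met- differed by number of coding exons, a split made after the values were seen, with ribosomal protein, TOP (terminal oligopyrimidine) and histone mRNAs left out. Of 328 mRNAs with a single coding exon 32% were at least 2-fold higher in Met-, of 375 with 2 coding exons 31.5%, of 431 with 3 coding exons 23.0%, of 574 with 4 coding exons 17.4%, of 610 with 5 coding exons 16.1% and of 5340 with at least 6 coding exons 12.6%, against 15.6% over all 7658. Their medians were 0.68, 0.54, 0.46, 0.30, 0.28 and 0.27. The share that was at least 2-fold lower was 6.10% with 1 coding exon and 2.70% with at least 6. The single-exon group had a median density of 35.3 RPKM and that with at least 6 exons 37.1 RPKM. Among mRNAs with at least 100 reads in the pair the shares were 32.5% with 1, 36.5% with 2 and 11.4% with at least 6 coding exons. Over Suff the medians in Met- were 0.61, 0.47, 0.29, 0.07, 0.08 and 0.41 in the same order of exon number, so mRNAs with at least 6 exons were above those with 3 to 5, and in Arg- they ran from -0.22 to 0.09. Across all 7797 mRNAs with a coding sequence the Spearman rho of the ratio with exon number was -0.066. In the pair with cycloheximide the median was 2.62 for 1 coding exon (73 of 328 mRNAs listed in both). It was 0.95 for at least 6 (1172 of 5340 mRNAs), beside 1.10 over all 1737. An mRNA is listed in both only with enough reads in the Met- library of that pair, which favours high values there. How far this selection differs with exon number was not tested, so these medians are no separate support for the split.

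**Figure D5:**
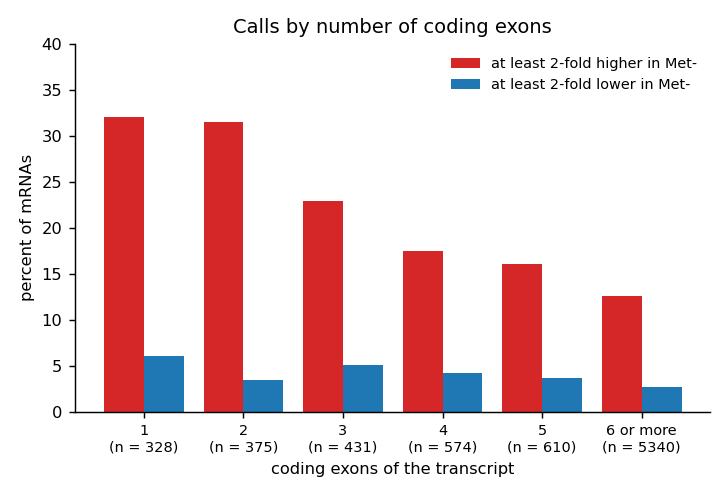
Percent of mRNAs at least 2-fold higher (red) and at least 2-fold lower (blue) in Met- than in Arg-, by the number of coding exons of the transcript, without ribosomal protein, TOP and histone mRNAs and with n under each pair of bars. The red bars fall from 32% with 1 coding exon to 12.6% with at least 6, while the blue bars stay between 2.70% and 6.10%.

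Ratios also differed by length of the untranslated regions, in quartiles with ribosomal protein, TOP and histone mRNAs left out. In the quartile of mRNAs with the longest 5′ UTR (median 419 bases) 23.6% were at least 2-fold higher and the median was 0.53, against 11% and 0.16 in the quartile with the shortest (median 29 bases). The corresponding shares were 19.6% and 12.2% for the 3′ UTR and 16.5% and 11.9% for the coding sequence. Mean density differed along with these quartiles, from a median of 52.1 RPKM for the shortest to 30.6 RPKM for the longest 5′ UTR. For the 3′ UTR it ran from 52.3 to 33.5 RPKM and for the coding sequence from 87.0 to 23.5 RPKM. The part of density in the result was not tested. As a description across 7797 mRNAs, with those groups included, Spearman rho with the log2 ratio was 0.20 for 5′ UTR length, 0.18 for 3′ UTR length and 0.14 for coding length. These mRNAs are not independent replicates. Zinc finger proteins whose symbol is ZNF and a number were counted as a further group, also after the values were seen. Of 141 such mRNAs 45 (31.9%) were at least 2-fold higher and 3 at least 2-fold lower, with a median of 0.70. Over the 7658 mRNAs of the quartiles 15.6% were at least 2-fold higher and 3.20% at least 2-fold lower. The median density was 19.8 RPKM for these zinc finger mRNAs and 40.3 RPKM for the 7658, and its part was not tested here either.

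The share of the missing amino acids in the encoded protein had a weak correlation with the ratio. The Spearman rho was -0.051 with the share of arginine and -0.027 with that of methionine, and without ribosomal protein, TOP and histone mRNAs -0.029 and -0.030. Among the 20 amino acids alanine was lowest at -0.11 and serine highest at 0.11. Among the 61 sense codons the arginine codon CGC had the lowest rho, -0.072, and the serine codon AGT the highest, 0.11. The other arginine codons lay on both sides of 0, with CGT at -0.032, CGG at -0.012, CGA at 0.005, AGA at 0.017 and AGG at 0.043. Without ribosomal protein, TOP and histone mRNAs CGC ranked second, at -0.049, behind the alanine codon GCC at -0.058. In the pair with cycloheximide rho was 0.24 for arginine and -0.23 for methionine, the former of the opposite sign and both larger in size. These 2 values cover only mRNAs listed in both libraries of that pair. Being listed needs enough reads in its shallow Met- library, so the set is smaller and selected. All points share the same 2 libraries, the shares are correlated with each other, and these are descriptions without a test.

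The pair of libraries with cycloheximide gave a separate look at the same contrast, but its file names do not mark a removal of duplicates and its Met- library was shallow, at 538222 reads against 5010210 in Arg-, with mRNAs listed from 64 reads. Of the 8057 mRNAs 1884 were listed in both libraries of that pair, and their log2 ratios had a Spearman rho of 0.49 with those above (0.44 for 1779 mRNAs without ribosomal protein, TOP and histone mRNAs). An mRNA enters this set only with enough reads in the shallow Met- library, which favours high values there, and the median ratio was 1.04. Another 4900 of the 8057 mRNAs were listed in Arg- alone of that pair, and for these Met- lay below the density that 64 reads would give. This density was under that of Arg- for 572 of them (11.7%), among them 42 of 177 mRNAs that were at least 2-fold lower without cycloheximide and 10 of 661 that were at least 2-fold higher. For the remainder the order is not known. Of the 269 higher calls listed in both, 7 were below Arg- there. Against the median of 1.04, 225 of these 269 lay above it. Of 71 lower calls listed in both, 65 lay below that median. Without ribosomal protein, TOP and histone mRNAs it was 28 of 34 lower calls. For the 34 histone mRNAs listed in both the median log2 ratio was -2.22, and histone mRNAs took 4.43% of the reads in Met- and 17.1% in Arg-. MED18 had 333 and 54.7 RPKM, HEXIM1 had 202 and 19.6 RPKM and HNRNPL had 83.1 and 304 RPKM in Met- and Arg- of that pair. None of the 5 ISR mRNAs that were lower in Met- without cycloheximide was among the 6 members listed in both, whose median was 1.07. ATF3 had 1045 RPKM in Arg- and less than 219 RPKM in Met- of that pair, so it was at least 4.77-fold lower, and CTH at least 2.62-fold lower (278 RPKM in Arg-). For TRIB3, DDIT3, NUPR1 and INHBE the density that 64 reads would give in Met- was above that of Arg-, so their order is not known.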

How the data were processed

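HEK293T ribosome profiling libraries in methionine-deficient and arginine-deficient medium without cycloheximide were compared, 1 library each. The authors trimmed adaptors (cutadapt in the submitters' processing notes, a Perl script in the methods), kept footprints by length, removed low-quality ends with Trimmomatic, aligned them to the human transcriptome (GRCh38) with Bowtie without mismatch, kept uniquely mapped reads and, for these libraries, removed duplicates according to the file names. The annotation release is not given in the sources used here. The authors deposited RPKM values per Ensembl transcript, scaled to coding length and to reads on coding sequences.

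Symbols and coding lengths came from GENCODE release 44 (GRCh38), which held 96.7% of the transcripts of each library of the pair, and 252 compared mRNAs stayed under transcript identifiers. The product of RPKM and coding length falls on steps of 1 read, from which reads were recovered (97.2% of mRNAs within 0.01 of a step in Met-, 97.3% in Arg-). The lowest listed mRNA had 5 reads. The pair had to reach a mean RPKM of 10, 1 was added to each value before the log2 ratio, and 0 was entered for mRNAs that were not listed (19 in Met-, 17 in Arg-). Intervals are exact 95% Clopper-Pearson intervals of the share of reads, for counting error only. PCR reads without molecular identifiers are not independent molecules. No test was run, because each condition had 1 library.

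The mRNAs named were the 12 highest and 12 lowest ratios with at least 100 reads in the pair, up to 4 members of each of 33 gene lists by size of ratio, all members of 4 lists, and methionine and arginine sensors, synthetases and a transporter. The members and lists were chosen with earlier results of these data known, and 6 further lists, GPATCH2L, RPAP2, other single members and the split by gene structure after these values were seen. Other settings tried were a minimum mean RPKM of 50 or none, a pseudocount of 0.1, mRNAs listed in both, summed transcripts, centring, rescaling, the pair with cycloheximide and at least 100 reads. A few named mRNAs are not reported here. Scripts were tested on simulated data. Tables were handled with pandas 2.3.3 and numpy 2.4.6 under Python 3.11.15, intervals came from scipy 1.17.1, and plots were drawn with matplotlib 3.10.9.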

Additional observations from a re-analysis of the deposited data

Results flagged for a closer look

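In the 8 cases given here the ratio over Suff was beyond 2-fold in both conditions and of opposite sign. They are not a count over all compared mRNAs. Single histone mRNAs, such as H3C12 at -2.47 in Met- and 1.23 in Arg-, also met this rule. Each condition had 1 library and both ratios share the Suff library, so the difference was not tested. Over the 47 replication-dependent histone mRNAs the median log2 ratio over Suff was -1.14 in Met- and 1.23 in Arg-. For MAT2A, which makes SAM, it was 2.03 in Met- and -1.53 in Arg-. HOXD1 was not listed in Met-, and its log2 ratios over Suff were -6.74 in Met- and 5.19 in Arg-. The former depends on the pseudocount and is no fold. NAB2, a corepressor of EGR factors, had 1.20 in Met- and -1.76 in Arg-. GEMIN6, of the SMN complex, had 1.13 in Met- and -1.17 in Arg-. GPAT4, which starts glycerolipid synthesis, had 1.06 in Met- and -1.29 in Arg-. The chromatin protein UBN1 had 1.10 in Met- and -1.22 in Arg-, and THAP12, a zinc finger protein, had 1.10 in Met- and -1.23 in Arg-. Of these 8 cases the histones and HOXD1 were lower in Met-, and the other 6 were lower in Arg-.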

How the results depend on the processing

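No paired analysis was possible because each condition had 1 library. Of 129 named mRNAs past 2-fold, each kept its direction wherever it was measured under all 8 alternatives without cycloheximide. These alternatives reuse the same pair of libraries and shift a ratio little or not at all. Keeping the direction therefore followed from the choice of mRNAs past 2-fold and is no separate support. Among those listed in both libraries with cycloheximide 51 of 52 kept it, the exception being JUND at 1.74. Being listed there favours high values in the shallow Met- library, and the median of that pair was 1.05. A positive ratio there is thus little support for a higher call. Some named mRNAs were listed with cycloheximide in Arg- alone, an alternative added after seeing the data. For these, Met- had to lie below Arg- for 14 of 29 lower calls and for 1 of 26 higher calls. The latter was ODC1, which is thus reversed too. CEBPG and YTHDF2, named beyond these, lay below Arg- there as well, by at least 1.09-fold and 1.23-fold, and the order of the remaining mRNAs is not known. Centring left 114 of the 129 past 2-fold and rescaling without ribosomal protein, TOP and histone mRNAs 107 of 116. A pseudocount of 0.1 gave an SD of 0.95 over mRNAs. A minimum mean RPKM of 50 gave 413 mRNAs higher and 147 lower, a median of 0.19, an SD of 0.77 and a rho with arginine share of -0.073. No minimum gave 1920 higher and 856 lower, an SD of 1.03 and a rho with methionine share of -0.0045. mRNAs listed in both gave an SD of 0.72. Centring gave 576 higher, 589 lower and a histone median of -2.70. Rescaling gave 478 lower and a median of 0.11. The pair with cycloheximide gave 143 lower, a median of 1.05, an SD of 1.36, an ISR median of 1.07, and a rho of 0.24 with arginine and -0.23 with methionine share. Requiring at least 100 reads in the pair, chosen after seeing the data, gave 751 higher, 176 lower, a median of 0.27 and an SD of 0.73. The cause of these differences was not tested, except that the minimums change how many mRNAs are compared. Depth limits single mRNAs with few reads, such as INHBE with 45 in the pair.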
